A study of Mus musculus with 4 samples.

Results

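Integrins are cell surface receptors made of 1 alpha and 1 beta subunit, through which lymphocytes hold on to vessel walls, matrix and other cells. The integrin genes described here are 10 subunit genes fixed by name: the beta subunits *Itgb1*, *Itgb2*, *Itgb3* and *Itgb7* and the alpha subunits *Itga1*, *Itga2*, *Itga4*, *Itgae*, *Itgal* and *Itgav*. Of these, 9 were on at least 1 list in a pair of deposited tables that together name 3488 genes, and 5 were on lists of both tables. *Itgb2*, the beta subunit shared by LFA-1 and the CD11 integrins, was on no list.

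Both tables pool 4 single-cell libraries of wild type BALB/c mice, aged 8 weeks per the study's methods, which had an intraperitoneal injection daily for 5 days. The libraries formed 4 groups of 1 library each, namely liver after PBS, lung after PBS, liver after rIL-33 (recombinant interleukin-33, 0.5 µg a day) and lung after rIL-33. Cells were sorted to enrich group 2 innate lymphoid cells (ILC2s), which lack antigen receptors and release type 2 cytokines, as lineage-negative CD127+ Thy1+ ST2+ cells. Since no value was split by library, neither treatment nor organ was compared, there was no replicate, and the tables give neither the depth nor the number of cells behind a share.

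The alpha subunit largely sets what an integrin binds, and signals from inside the cell decide whether it binds at all. The alpha1beta1 and alpha2beta1 pairs bind collagen, alpha4beta1 binds VCAM-1, alpha4beta7 binds MAdCAM-1 of gut vessels, alphaEbeta7 binds E-cadherin of epithelium, alphaLbeta2 binds ICAM-1, and alphaV pairs bind RGD-containing proteins such as fibronectin, vitronectin and latent TGF-beta. Rap1 GTPases, the Rap1 exchange factor encoded by *Rasgrp2*, talins and kindlins switch integrins on.

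A listing means here that 1 gene stands on the list of 1 cluster, because its average was higher there than in all other cells in a marker test run by the authors. For each listing the table gives 2 shares, that of the cluster's cells in which the gene had a value above 0 and the same share among all other cells of the table, to within 0.05 percentage points of rounding. The cell type table covers 21 types of sorted cells and the ILC2 subcluster table covers 10 subclusters of the ILC2s, numbered from 0. A gene that is not listed for a cluster may be lower there, equal, rare or untested. The clusters were formed from the same cells, so every difference between a cluster and the rest is a description and no p-value is given.

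Among ILC2 subclusters, 8 of the 10 integrin genes had 16 listings, which is 20.0% of 80 possible pairs of gene and subcluster, where 14.2% of such pairs were listed over all genes of that table. Among cell types, 6 integrin genes had 30 listings, 23.8% of 126 possible pairs, against 12.5% over all genes. The median difference between the share inside and outside was 20.6 percentage points for the integrin listings among subclusters, beside 13.3 over all listings there. Among cell types it was 6.65 points, beside 18.4 over all listings. The share inside was the higher one in 12 of the 16 integrin listings among subclusters (75.0%, beside 70.5% over all listings) and in 21 of the 30 among cell types (70.0%, beside 83.6%). Subclusters 0, 3 and 4 listed none of the 10 integrin genes, and neither did the cell types ILC2, CD8_Naive, MMP_LMPP, Macrophage, Plasma cell and gdT_TypeII.

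Markers were read beside these labels. The type named ILC2 listed 7 of 10 ILC2 markers, among them *Gata3* in 93.0% of its cells against 60.2% of others, and *Il1rl1* (the IL-33 receptor) in 90.2% against 47.7%. These were not particular to it: gdT_TypeII listed *Gata3* in 97.6% against 74.0% and *Il1rl1* in 95.3% against 65.6%. ILC2_2 listed *Il1rl1* in 85.8% against 65.7%. Basophil listed 5 of 5 basophil markers, whereas Macrophage listed only *Lyz2* of 5. NK listed 5 of 5 markers of NK cells and ILC1s, of which *Tbx21* had the lower share inside, 51.1% against 51.8%. ILC1 listed 4 of these 5, with *Tbx21* in 53.7% against 51.7% and *Klre1* in 54.5% against 54.9%. Some types listed markers of other cells: ILC3 listed 6 of 7 T cell markers and 1 of 3 ILC3 markers, and MMP_LMPP listed the B cell markers *Cd79a*, in 76.4% against 27.8%, and *Ighm*, in 91.1% against 65.1%. No ILC2 subcluster listed any of the markers of basophils, NK cells and ILC1s, macrophages or B cells. Of 4 endothelium markers, *Cdh5* and *Kdr* were on no subcluster list, whereas *Pecam1* was listed for subclusters 1, 5 and 8 and *Stab2* for subclusters 0, 3 and 9. Of 3 proliferation markers, subcluster 4 listed all 3 and subclusters 6 and 8 listed *Top2a*. Subcluster 5 listed 3 of 7 T cell markers, with *Cd3e* in 32.0% of its cells against 4.7%, *Trdc* in 25.6% against 7.0% and *Cd3g* in 39.5% against 32.6%. Subcluster 6 also listed 3, with *Tcrg-C1* in 40.1% against 25.5%, *Cd3g* in 46.1% against 32.4% and *Trbc2* in 88.0% against 81.5%, and subclusters 1, 2 and 7 listed 1 each. The 2 tables are not on the same scale. Of 116 genes listed for the type ILC2 that were also in the subcluster table, 112 had the higher share in the first, by a median of 16.8 points. *Cd3e*, whose protein the sort selected against, had a value above 0 in 83.5% of all cells of the cell type table and in 5.76% of the ILC2s of the other. The assay behind each table was not stated, so a value above 0 may not be a detected transcript.

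Subcluster 1, solved at 20.1% ± 0.0166 (least squares SE) of the ILC2s, held the most integrin listings. It listed 5 of the 8 integrin genes of the table, *Itgb1*, *Itgb3*, *Itgb7*, *Itga2* and *Itga4*, where 13.8% of all genes of the table were on its list. In all 5 the share inside was above the share outside, as it was for all 363 genes listed for subcluster 1, so this direction is that of the whole list. Of 7 T cell markers it listed 1, *Trbc2*, in 86.1% of its cells against 80.7%, and of 4 endothelium markers *Pecam1*, in 38.1% against 24.6%. The part of these in its integrin values was not tested.

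*Itga4*, the alpha subunit of both alpha4 integrins (chromosome 2, 79255426 to 79333123, plus strand, GRCm38, protein-coding), was present in 92.2% of subcluster 1 cells and in 71.0% of all other ILC2s. *Itgb7*, its gut-homing partner (chromosome 15, 102215995 to 102231944, minus strand), was found in 97.8% against 85.2%, and no other subcluster listed it. *Itgb1*, the most widely paired beta subunit (chromosome 8, 128685654 to 128733200, plus strand), was found in 69.3% against 42.5%. All 3 were common in ILC2s at large, at 75.3% of all ILC2s for *Itga4*, 87.7% for *Itgb7* and 47.9% for *Itgb1* when the shares were combined with the solved cluster sizes.

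*Itga2*, the collagen-binding alpha2 subunit (chromosome 13, 114833081 to 114932100, minus strand), was rarer. It was found in 34.4% of subcluster 1 and 12.0% of the other ILC2s, a ratio of 2.87, and subcluster 1 held 41.8% of all ILC2s with *Itga2*. *Itgb3*, the beta subunit of the vitronectin receptor (chromosome 11, 104608000 to 104670476, plus strand), was found in 82.3% against 54.2%. Its difference of 28.1 points ranked 31 among the 363 genes that subcluster 1 listed. On that list *Itgb1* ranked 36, *Itga2* 54, *Itga4* 69 and *Itgb7* 270.

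The window before the start of each gene is shown for *Itga4* and *Itgb7*, the alpha4beta7 subunits that subcluster 1 listed together. Sequences are the 250 bases before the RefSeq start (GRCm38.p6), 5′ to 3′ on the gene's strand, taken for 6 of the 10 integrin genes that matched by symbol. Capitals mark matches on either strand to letters of 3 transcription factor families that the study followed. These were AGATAA or else AGATAG, and TGATAA or else TGATAG, for GATA factors, TGTGGT for RUNX factors and TGANTCA for AP-1, and no one of the 3 sets holds another. The *Itga4* window, chr2:79255176-79255425 on the plus strand, and the *Itgb7* window, chr15:102231936-102232185 on the minus strand, read as follows. Gene positions elsewhere are from GENCODE, and the RefSeq start of *Itgb7* lies just inside its GENCODE gene, so that window overlaps the first bases of it.
Itga4: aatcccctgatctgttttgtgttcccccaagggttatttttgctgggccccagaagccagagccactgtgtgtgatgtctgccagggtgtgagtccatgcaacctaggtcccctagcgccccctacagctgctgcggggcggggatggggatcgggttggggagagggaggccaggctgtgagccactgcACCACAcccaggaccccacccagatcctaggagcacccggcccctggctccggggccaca
Itgb7: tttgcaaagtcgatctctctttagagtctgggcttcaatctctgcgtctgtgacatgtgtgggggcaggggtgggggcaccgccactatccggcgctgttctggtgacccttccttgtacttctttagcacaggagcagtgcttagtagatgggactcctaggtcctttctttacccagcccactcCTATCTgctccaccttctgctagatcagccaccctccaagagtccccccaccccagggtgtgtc
The *Itga4* window holds 1 RUNX match, which begins 60 bases before the start, and the *Itgb7* window holds 1 GATA match, which begins 64 bases before it. The other 4 windows (*Itga1*, *Itga2*, *Itgav*, *Itgb1*) hold none of these letters. Of 32851 windows in the RefSeq table, 26.5% hold a GATA match, 14.0% a RUNX match and 6.75% an AP-1 match. A match is only a run of letters, and binding was not measured in these tables.

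**Figure D1:**
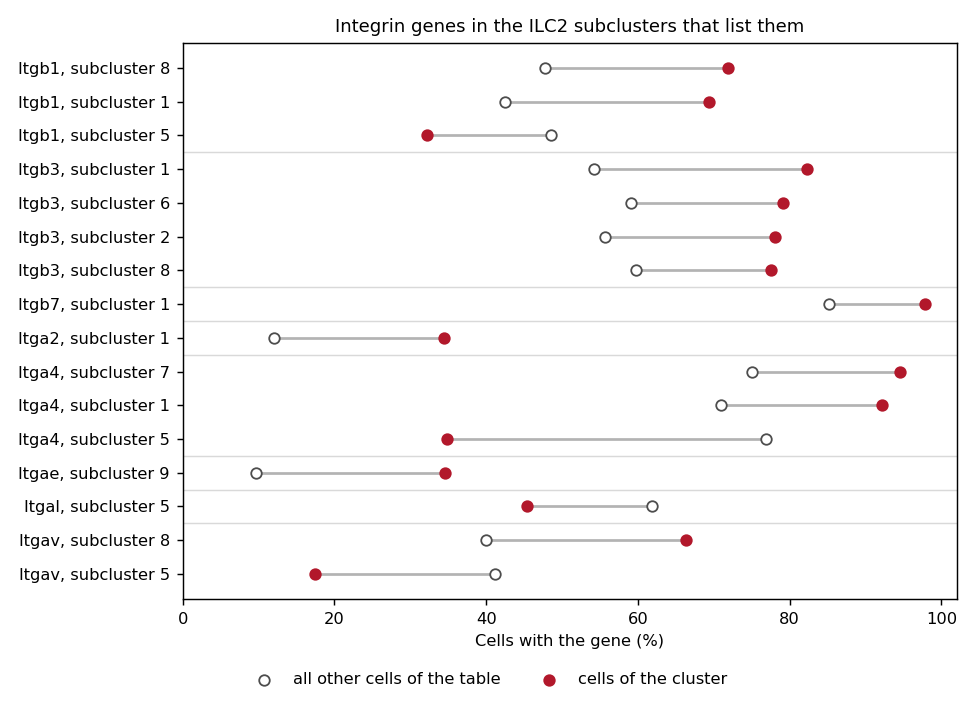
Share of ILC2s with each integrin gene (horizontal axis, percent of cells) in each subcluster that lists it; filled points are the cells of the subcluster and open points all other ILC2s, with no error bars because the libraries were pooled. The 5 genes of subcluster 1 lie to the right of their open points, whereas the 4 genes of subcluster 5 lie to the left, which are the directions of all 363 and of 978 of 1000 genes on the lists of these subclusters.

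*Itgb3* was the integrin gene listed for the most subclusters. Subclusters 1, 6, 2 and 8 had it in 82.3%, 79.1%, 78.1% and 77.5% of their cells, against 54.2% to 59.7% of the ILC2s outside each. These 4 subclusters together held 42.8% of the ILC2s, and the 6 that did not list *Itgb3* had it in 44.6% ± 0.0297 (SE from the size fit) of their cells combined. The order among the 4 spans 4.8 points and has no replicate spread to set it against. In subcluster 2 the difference for *Itgb3*, 22.4 points, ranked 11 of 131 listed genes. It ranked 37 of 190 in subcluster 6 and 147 of 253 in subcluster 8. Subcluster 2 also listed the T cell marker *Trbc2*, in 87.2% against 80.6%. Subcluster 6 listed the T cell markers given above and the proliferation marker *Top2a*, in 49.0% against 29.6%. The part of these markers in the *Itgb3* values was not tested.

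*Itga4* was also listed for subcluster 7, which makes up 1.42% of the ILC2s, with 94.5% of its cells against 75.0% of the others. By difference *Itga4* ranked 193 of the 270 genes listed for subcluster 7. That subcluster also listed *Tcrg-C1*, in 42.0% against 25.8%, whose part in this value was not tested. Outside subclusters 1, 5 and 7, *Itga4* was found in 72.4% ± 0.0068 of the cells combined. *Itgb1* was also listed for subcluster 8, with 71.9% against 47.7%, and was found in 42.8% ± 0.0078 of the cells of the 7 subclusters that did not list it. Subclusters 1 and 8 thus stood 2.6 points apart for *Itgb1*, and both lay above that combined share.

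Subcluster 8, at 0.668% of the ILC2s, listed 3 integrin genes, *Itgb1*, *Itgb3* and *Itgav*, where 9.62% of all genes of the table were on its list. *Itgav*, the alphaV subunit (chromosome 2, 83724397 to 83806916, plus strand), was found in 66.3% of its cells and in 40% of the others. The difference of 26.3 points ranked 32 of 253 genes listed for subcluster 8, where *Itgb1* ranked 47 and *Itgb3* 147. Among ligand genes, *Icam1* alone was listed in the subcluster table, and it was listed for subcluster 8, with 42.7% against 22.2%. *Icam1* encodes the ligand of alphaLbeta2. Subcluster 8 also listed *Pecam1*, in 49.4% of its cells against 27.1%, and *Top2a*, in 49.4% against 30.2%, and their part in its integrin values was not tested.

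*Itgae*, the alphaE subunit CD103 (chromosome 11, 73090583 to 73147446, plus strand), was the rarest integrin gene listed among ILC2s, at 9.85% of all ILC2s. Subcluster 9, the smallest at 0.611%, was the one that listed it. *Itgae* was found there in 34.6% of cells against 9.7%, a ratio of 3.57, and this ranked 13 of 199 listed genes by difference. Even so, subcluster 9 held 2.15% of the ILC2s with *Itgae*, and the rest lay in subclusters that did not list it. *Itgb7*, the partner of *Itgae*, was not listed for subcluster 9. That subcluster also listed the endothelium marker *Stab2*, in 70.4% against 34.2%, whose part in the *Itgae* value was not tested.

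Subcluster 5, at 3.87% of the ILC2s, went the other way in its shares. It listed 4 of the 8 integrin genes, *Itga4*, *Itgav*, *Itgal* and *Itgb1*, and its own list covered 38.0% of all genes of the table. *Itga4* was found in 34.9% of its cells against 76.9%, *Itgav* in 17.5% against 41.1%, *Itgb1* in 32.2% against 48.5% and *Itgal* in 45.4% against 61.9%. *Itgal* encodes the alphaL subunit of LFA-1 (chromosome 7, 127296260 to 127335138, plus strand). For all 4 the share inside was thus the lower one although the list is one of higher averages, and the same held for 978 of the 1000 genes listed for subcluster 5. T cell markers were listed there too, as given above, and their part in these integrin values was not tested. Without subcluster 5, *Itgal* had no listing, *Itgav* kept 1 of 2, and the integrin genes had 12 listings.

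Whether both subunits of a pair were found in the same cell is not in the tables, but 2 shares set limits on it. If a share a of the cells has one gene and b the other, at least a + b − 100% and at most the smaller share has both. Known pairs numbering 8 were read in each cluster that listed both subunits, and limits inside and outside a cluster were called apart when over 0.15 points, the most that rounding allows, lay between them. Among subclusters 7 such cases arose, and 3 were apart. In both tables these limits restate the shares of genes already listed for the cluster and add no support to the listings. How often pairs of other listed genes lay apart was not counted, so the counts are not a result about integrin pairs.

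*Itga4* and *Itgb7* (alpha4beta7) were together in 90.0% to 92.2% of the cells of subcluster 1, against 56.2% to 71.0% of the other ILC2s. *Itga4* and *Itgb1* (alpha4beta1) were together in 61.5% to 69.3% of subcluster 1, against 13.5% to 42.5%. For both alpha4 integrins, the share of cells with values above 0 for both subunits was thus larger in subcluster 1 than among other ILC2s, however the values are arranged among cells. *Itga2* and *Itgb1* (alpha2beta1) could be together in 3.7% to 34.4% of subcluster 1 and in 0% to 12.0% outside, which overlap. In subcluster 8 the limits for *Itgav* and *Itgb3* (alphaVbeta3) were 43.8% to 66.3% against 0% to 40%, which do not overlap, and those for *Itgav* and *Itgb1* were 38.2% to 66.3% against 0% to 40%, which do. These limits concern values above 0 in the authors' table, whose assay was not stated, and not receptors on the surface.

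**Figure D2:**
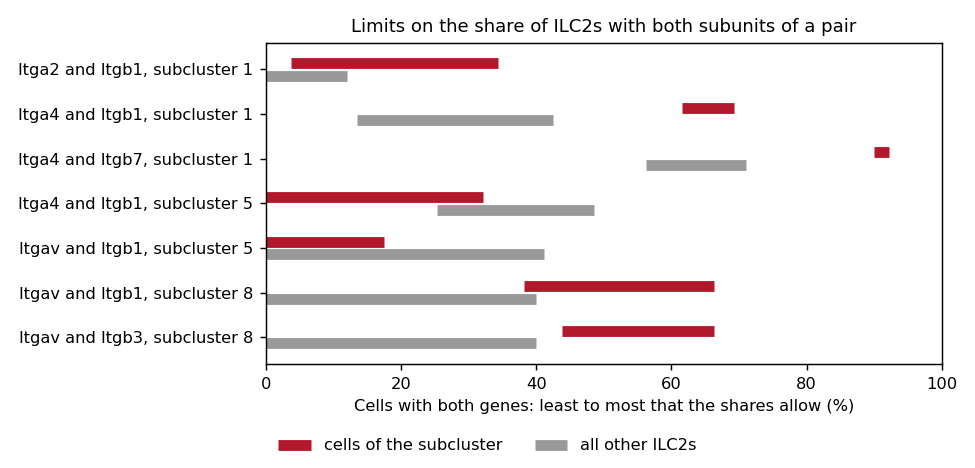
Lowest to highest share of cells that can have values above 0 for both subunits (horizontal axis, percent of cells), for pairs whose subunits are both listed for an ILC2 subcluster; the upper bar is the subcluster and the lower bar all other ILC2s. Bars do not overlap for both alpha4 pairs of subcluster 1 and, by 3.8 points, for *Itgav* and *Itgb3* in subcluster 8.

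A list of 40 genes was read for integrin activation and adaptors. It is not a set of activators alone, since it also holds membrane partners and kinases such as *Cd47*, *Cd81* and *Lck*. Of the 40, 18 had 27 listings among subclusters, 20 of them (74.1%) with the share inside above that outside. This is 15.0% of 180 possible pairs, near the 14.2% over all genes, and the share of higher values is near the 70.5% over all listings. The 3 with the largest differences were *Rasgrp2* and *Flna* in subcluster 1 and *Lck* in subcluster 4. *Rasgrp2*, which encodes a calcium-driven activator of Rap1, was found in 72.6% of subcluster 1 and in 23.3% of the other ILC2s, a ratio of 3.12. By that difference of 49.3 points it ranked 1 of the 363 genes listed for subcluster 1, and the subcluster held 43.9% of the ILC2s with *Rasgrp2*. *Flna*, the actin crosslinker filamin A that binds beta tails, was found in 86.4% against 56.2%. *Lck*, a Src family kinase of T cells, was found in 40.3% of subcluster 4 against 14.9%.

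Subcluster 1 listed 7 of these 18 genes in all, where 13.8% of all genes of the table were on its list. All 7 had the higher share inside, as did all 363 genes on that list. Beside *Rasgrp2* and *Flna*, the other 5, named after their values were seen, were *Cytip*, *Zyx*, *Rap1b*, *Cd47* and *Rac2*. *Rap1b*, one of the Rap1 GTPases, was found in 96.3% against 85.0%, and *Cytip*, a cytohesin partner in leukocytes, in 94.4% against 69.4%. Subcluster 5, whose list covered 38.0% of all genes of the table, listed more of the 18 than subcluster 1. These were *Apbb1ip*, *Lims1*, *Flna*, *Fyb*, *Cyth1*, *Fyn*, *Lck* and *Tspan32*, and all but *Lck* had the lower share inside. *Flna* was found there in 24.3% against 63.8%. The kindlin and talin genes of the list (*Fermt1*, *Fermt2*, *Fermt3*, *Tln1*, *Tln2*) were on no subcluster list.

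**Figure D3:**
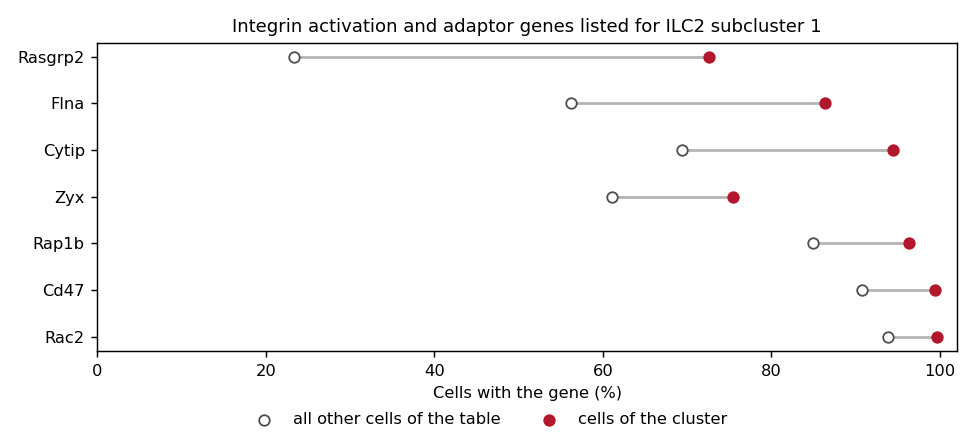
Share of ILC2s (horizontal axis, percent of cells) with each of the 7 integrin activation and adaptor genes listed for subcluster 1; filled points are subcluster 1 and open points all other ILC2s. *Rasgrp2* has the widest gap, 72.6% against 23.3%, and *Rac2* the narrowest, 99.7% against 93.9%. All 363 genes on the list of subcluster 1 had the higher share inside.

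Among all sorted cells *Itgb1* was the integrin gene listed for the most types, 10 of 21. Shares in this table are shares of cells with a value above 0 on a scale whose assay was not stated, and are read only within the table. They were 98.4% in Endothelium cell, 96.5% in the type spelled Prolifelation cell, 92.9% in ILC1, 91.9% in NK, and 89.9% in both Treg and Basophil, against 67.8% to 69.4% outside each. In gdT_TypeIII_CD163l1, a gamma delta T cell type, it was 76.9%, and in CD8_Effector 75.4%, each against 69.5%. CD4 at 58.4% and ILC2_2 at 44.2% lay below the 69.9% and 70.0% of the other cells. The 11 types without a listing, the main ILC2 type among them, had *Itgb1* in 64.4% ± 0.0152 of their cells combined. Prolifelation cell also listed *Eomes*, of the markers of NK cells and ILC1s, in 92.2% against 63.0%. Its part in the *Itgb1* share of that type was not tested.

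Of the collagen-binding alpha subunits, *Itga2* was listed for Basophil with 92.8% against 38.2%, for ILC1 with 65.7% against 37.4% and for NK with 65.4% against 37.8%. ILC1 and NK differed by 0.3 points for *Itga2*, which is small beside the difference of either from the other cells. The protein it encodes is CD49b, a usual surface marker of NK cells and basophils. Basophil also listed the endothelium marker *Pecam1*, in 62.4% against 47.0%, whose part in its integrin values was not tested. *Itga1*, which encodes the CD49a of tissue-resident ILC1s (chromosome 13, 114953096 to 115101964, minus strand), was listed for 6 types, with 89.2% in Endothelium cell and 77.6% in ILC1_ILC3, against 53.5% and 53.7%. In ILC1 it was 56.6%, 2.9 points above the others. In gdT_TypeI, ILC3 and CD8_Effector, at 48.5%, 36.4% and 27.6%, the share of *Itga1* was below that of the other cells. *Itga1* was on no subcluster list.

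NK listed 3 of the 6 integrin genes of the cell type table, *Itgb1*, *Itga2* and *Itga4*, where 11.7% of all genes of the table were on its list. CD8_Effector, ILC1, ILC2_2 and Treg also listed 3 each, and their lists covered 5.60%, 8.64%, 11.9% and 8.93% of all genes of the table. *Itga4* stood out least, with 83.7% in CD8_Effector, 80.1% in gdT_Naive, 78.2% in gdT_TypeI and 77.6% in NK against 75.4% to 75.6% outside each, and 65.0% in Treg and 54.2% in ILC2_2, below the others. In none of these 6 types did the share of *Itga4* lie 10 points above that of the other cells, and the types that did not list it had it in 75.6% of their cells combined.

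*Itgae* was found in 76.0% of gdT_TypeIII_ITGAE against 36.9%; that type bears its name, so this is how it was labelled and not a result. In gdT_TypeIII_CD163l1 it was 39.6% and in Treg 35.8%, within 2.2 points of the other cells. *Itgav* was listed for ILC1_ILC3 with 79.2% against 46.3%, and for ILC2_2 with 34% against 46.7%. ILC2_2, a minor type at 1.78% of the cells, listed *Itgb1*, *Itgav* and *Itga4*, and all 3 had the lower share inside, as did 53.0% of its 200 listed genes. Of ILC2 markers, ILC2_2 listed *Il1rl1*, in 85.8% against 65.7%, *Areg*, in 62.7% against 43.7%, and *Rora*, in 77.6% against 81.3%. It also listed markers of B cells (*Igkc*, 33.8% against 21.1%, and *Ighm*, 67.8% against 65.2%) and of endothelium (*Pecam1*, 73.8% against 46.7%, and *Stab2*, 69.1% against 58.8%). *Stab2* was not particular to it, as ILC2 listed it in 77.2% against 45.1% and gdT_TypeII in 72.2% against 58.8%. The part of these markers in the integrin values of ILC2_2 was not tested.

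**Figure D4:**
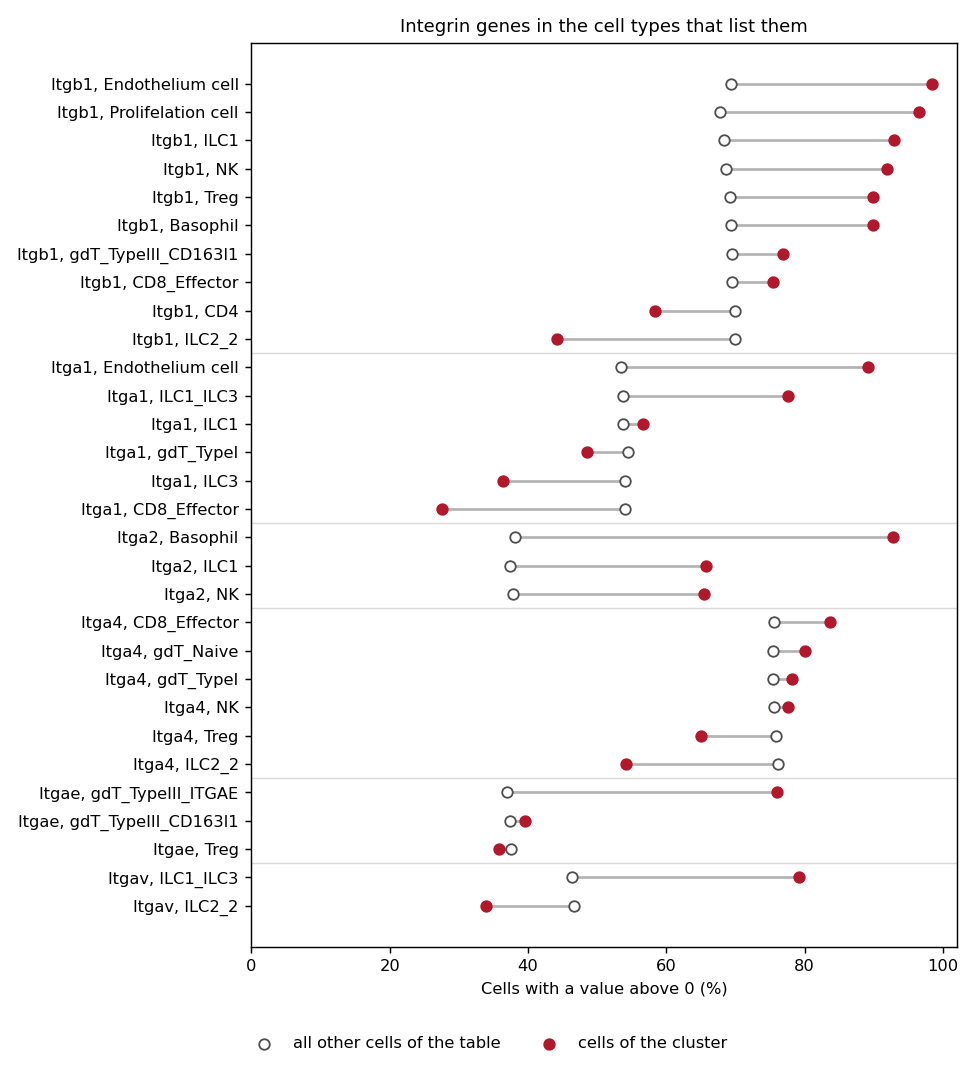
Share of sorted cells with a value above 0 for each integrin gene (horizontal axis, percent of cells) in each cell type that lists it; filled points are the type and open points all other cells of the table, with no error bars because the libraries were pooled. *Itga2* in Basophil has the widest gap, 92.8% against 38.2%, and 9 of the 30 filled points lie below their open points.

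Of 11 cases in which a type listed both subunits of a known pair, the limits inside lay above those outside in 5, below in 1 and overlapped in 5. *Itga2* and *Itgb1* were together in at least 82.7% of Basophil, 58.6% of ILC1 and 57.3% of NK, against at most 38.2%, 37.4% and 37.8% outside. *Itga1* and *Itgb1* were together in at least 87.6% of Endothelium cell against at most 53.5%. Endothelium cell also listed the proliferation marker *Stmn1*, in 92.8% of its cells against 43.3%, and its part in these values was not tested. For *Itga4* and *Itgb1* the limits in NK were 69.5% to 77.6% against 44.3% to 68.7%, apart by 0.8 points, and in ILC2_2 they were 0% to 44.2% against 46.1% to 70.0%.

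Of 16 other integrin genes, 4 were listed among cell types, with 11 listings, and none among subclusters. This is 13.1% of 84 possible pairs, near the 12.5% over all genes, and the share inside was the higher one in 63.6% of them, beside 83.6% over all listings. *Itga6*, a laminin-binding subunit, was listed for 6 types, led by Basophil with 84.5% against 42.3% and Endothelium cell with 74.5% against 42.5%. In CD8_Naive it was 49.9% against 42.5%, whereas in Treg, CD4 and gdT_Naive, at 39.8%, 38.2% and 30.3%, it lay below the 42.8%, 42.9% and 43.5% of the other cells. *Itga2b*, the platelet alphaIIb subunit, was found in 53.1% of Basophil against 23.1%, while the other platelet markers *Pf4*, *Ppbp* and *Gp9* were on no list. *Itgax* (CD11c) was found in 49.4% of NK against 37.2%. *Itgam*, which encodes the CD11b that the sort selected against, was found in 74.0% of MMP_LMPP against 45.8% and in 53.2% of NK against 45.6%, and in Basophil in 41.2% against 45.9%. Since the sort used its protein, the level of *Itgam* in these cells is not a result.

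Of 21 ligand genes, 7 were listed among cell types, in 8.16% of 147 possible pairs, beside 12.5% over all genes. The 3 with the largest differences were all listed for Endothelium cell: *Col4a2* in 93.6% against 5.6%, *Col4a1* in 94.8% against 11.3% and *Fn1* in 79.7% against 19.1%. The first pair encodes basement membrane collagen and *Fn1* encodes fibronectin. *Cdh1*, the E-cadherin that alphaEbeta7 binds, was found in 81.5% of Basophil against 40.9%, and was named after its value was seen. Of the 40 activation and adaptor genes, 6 were listed among cell types, in 23.8% of 126 possible pairs beside 12.5% over all genes. The share inside was the higher one in 86.7% of their listings, beside 83.6% over all, and the largest differences were *Parvb* in Endothelium cell with 62.5% against 11%, *Rasgrp2* in MMP_LMPP with 99.2% against 62.6%, and *Cd81* in MMP_LMPP with 93.5% against 57.0%. The part in these values of the B cell markers of MMP_LMPP, and of *Stmn1*, which it listed in 91.9% against 43.5%, was not tested.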

How the data were processed

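The 4 libraries were made with 10x Genomics 3′ reagents. Per the labels and the study's methods, the authors aligned reads with Cell Ranger to mm10, removed cells with fewer than 500 genes, scaled and log transformed the counts of each cell, clustered the cells in Seurat and listed markers with FindAllMarkers. Cells with non-ILC2 markers were left out before the ILC2s were clustered again. Doublets were removed by flow cytometry, and a computational doublet caller for these cells is not given in the sources used here.

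The values used are the deposited shares (fractions) of cells with a value above 0, inside and outside each cluster, as the authors pooled them over libraries. In each listing the larger of the 2 shares was 25.0% or more. The fold changes and p-values of the authors' own marker test are in the same tables and were not used, except to check that no fold change was negative.

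Cluster sizes were solved from an identity: outside share plus size times the difference of shares gives 1 overall share per gene, the same from each of its listings. Genes with 2 or more listings (1045 and 768) entered a least squares fit, which left residuals of 0.0275 and 0.0266 percentage points; the fit was tested on simulated data. Sizes gave the share of all cells with a gene and the combined share of clusters without a listing. Their errors cover rounding, not animals or cells.

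Named were all integrin genes, every listed other integrin gene, the 3 ligand and the 3 activation genes of each table with the largest share inside minus outside, and the 3 genes with the listings most like those of an integrin gene. Genes outside this rule are said to be so or serve as markers. The members and lists were chosen with earlier results of these data known. Alternatives were thresholds on the difference of shares, leaving out subcluster 5, and other fits of the sizes. Python 3.11.15, numpy 2.4.6, pandas 2.3.3 and matplotlib 3.10.9 were used.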

Additional observations from a re-analysis of the deposited data

How the results depend on the processing

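No paired analysis was possible because the tables carry no value per library, and a group is 1 library. Counting only listings with a share at least 0.1 above that outside left 13 of 30 listings of the integrin genes among cell types, 5 of 11 of the other integrin genes, 7 of 12 of the ligand genes and 12 of 30 of the activation and adaptor genes, and among subclusters 15 of 27 of the latter. Counting any share above that outside left 7 of 11 for the other integrin genes. Fewer listings follow from the construction of these thresholds. The 16 integrin listings among subclusters became 12 under both thresholds and without subcluster 5, each time those of subcluster 5 being the ones lost. Other fits of the cluster sizes moved no share by over 0.0356 points. The tables give no depth or cell numbers; by the solved sizes, shares of subclusters 8 and 9 rest on the fewest cells.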

Other observations

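The genes whose listings were most like those of an integrin gene were compared by the Jaccard index, the number of clusters that list both genes divided by the number that list either. Among the 10 subclusters, *Klf2*, a transcription factor of lymphocyte trafficking, and *Tpm4*, a tropomyosin, had the same 3 listings as *Itga4*. The 4 listings of *Itgb3* were shared exactly by 10 genes, among them *Arl6ip1* and the actin regulators *Coro1a* and *Cotl1*. The 3 listings of *Itgb1* were shared exactly by 10 genes, among them *Crybg1*, *Ifi203* and *Ms4a6b*, and the 2 of *Itgav* by 17, among them *Gbp7*, *H2-Q6* and *Irak1*.

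Among the 21 cell types, the 3 listings of *Itga2* were shared exactly by *Cd244a*, *Pim3* and *Plek*, those of *Itgae* by *Dusp4* and the 2 of *Itgav* by *Ttn*. No gene matched *Itgb1*, *Itga1* or *Itga4* exactly there. The closest to *Itgb1* was *Nabp1*, which shared 6 clusters at an index of 0.46, followed by *Cd48* and *Hopx* at 0.45. *Cxcr3*, *Gbp4* and *Socs2* shared 4 types with *Itga1* at 0.57, and *Cd28*, *Cd6* and *Gramd3* shared 5 with *Itga4* at 0.62. With so few clusters, exact matches are common for genes with few listings, and equal indices were ordered by name.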
